A study of Drosophila melanogaster with 110 samples.

Results

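Psc, Su(z)2, ph-p and ph-d are Polycomb group (PcG) genes that encode subunits of Polycomb repressive complex 1 (PRC1), and the question was how the chromatin of these 4 genes was bound by PRC1 itself and by the other PcG proteins. Every peak in 76 peak lists that overlapped the span of 1 of the 4 genes, or the 10 kb on either side of it, was taken, which gave 834 of 272688 peaks. The genes were chosen by name, 4 of 13968 protein-coding genes on the chromosome arms, without the use of any measured value. They lie in neighbouring pairs whose windows overlap, so the results refer to 2 loci, the Psc-Su(z)2 locus with 537 peaks and the ph locus with 297 peaks.

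The lists come from ChIP-seq of Kc167 cells, a Drosophila cell line derived from embryos, which were transfected and harvested 4 days later. Control cells received GFP dsRNA and rumpRNAi cells received dsRNA targeting rump, which encodes the hnRNP M homolog Rumpelstiltskin. The proteins Ph, Psc, Pc, E(z), Su(z)12, Pho, Crol, Cg, CP190, CTCF, Mod(mdg4) and Su(Hw), had 3 libraries per condition, and the histone mark H3K27me3 had 2 per condition. All libraries are of a single cell line that received dsRNA, the control included, and neither the remaining level of Rump nor the transcription of the 4 genes can be read from peak lists. The lists carry the fold enrichment over input of each peak and no read counts, so the depth of a library is unknown here. Strength is therefore given as a percentile, the share of the peaks of the same list with a lower fold enrichment, which depends on how many weak peaks a list contains.

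PRC1 compacts chromatin and ubiquitinates histone H2A, and PRC2 places H3K27me3, which the chromodomain of Pc recognizes. Both complexes are brought to Polycomb response elements (PREs) by DNA-binding recruiters such as Pho and Cg. Of the PRC1 subunits, Psc and Su(z)2 are paralogs that compact nucleosomes, and Ph, encoded by the tandem duplicates ph-p and ph-d, polymerizes through its SAM domain. Binding of PRC1 to the genes of its own subunits would be a feedback, which peak lists can locate but not show to act on transcription.

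Psc lies at chr2R:12965997-12980994 on the minus strand (FBgn0005624) and Su(z)2 at chr2R:12996501-13007911 on the plus strand (FBgn0265623), in the release 6 assembly (dm6). Their starts face each other across 15506 bp, a stretch that holds the start of the non-coding gene lncRNA:CR44339. The ph genes lie on the X chromosome, ph-d at chrX:2115727-2123286 (FBgn0004860) and ph-p at chrX:2126210-2138371 (FBgn0004861), both on the minus strand and 2923 bp apart. Both pairs carried Ph, Psc, Pc, Pho, Crol and Cg in every library of either condition. The pairs differed in the PRC2 side. The whole Psc-Su(z)2 locus lay within 1 H3K27me3 peak in all 4 libraries, whereas no H3K27me3 peak touched the ph locus in any of them.

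The Psc-Su(z)2 locus was a broad Polycomb domain. The H3K27me3 peak that held it was 120606 and 129507 bp wide in the control libraries and 122175 and 129024 bp wide in the rumpRNAi libraries, between the 4th and the 8th widest of its list. The stretch shared by the 4 libraries covered 120303 bp and overlapped 11 protein-coding genes, among them Mdr49, which encodes a multidrug transporter, and Drl-2, which encodes a Ryk family receptor. The locus window lay inside it with room on both sides.

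Pc filled most of the same locus. Peaks of Pc covered 88.2%, 92.4% and 100% of it in the control libraries and 54.3%, 95.4% and 73.1% after rumpRNAi. The values of the conditions overlapped, and the difference of -19.3 percentage points had an exact two-sided permutation p of 0.3. It was -9.33 without rumpRNAi replicate 1 and -29.9 without rumpRNAi replicate 2. The low value belongs to rumpRNAi replicate 1, whose Pc list was the shortest with 352 peaks.

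**Figure D1:**
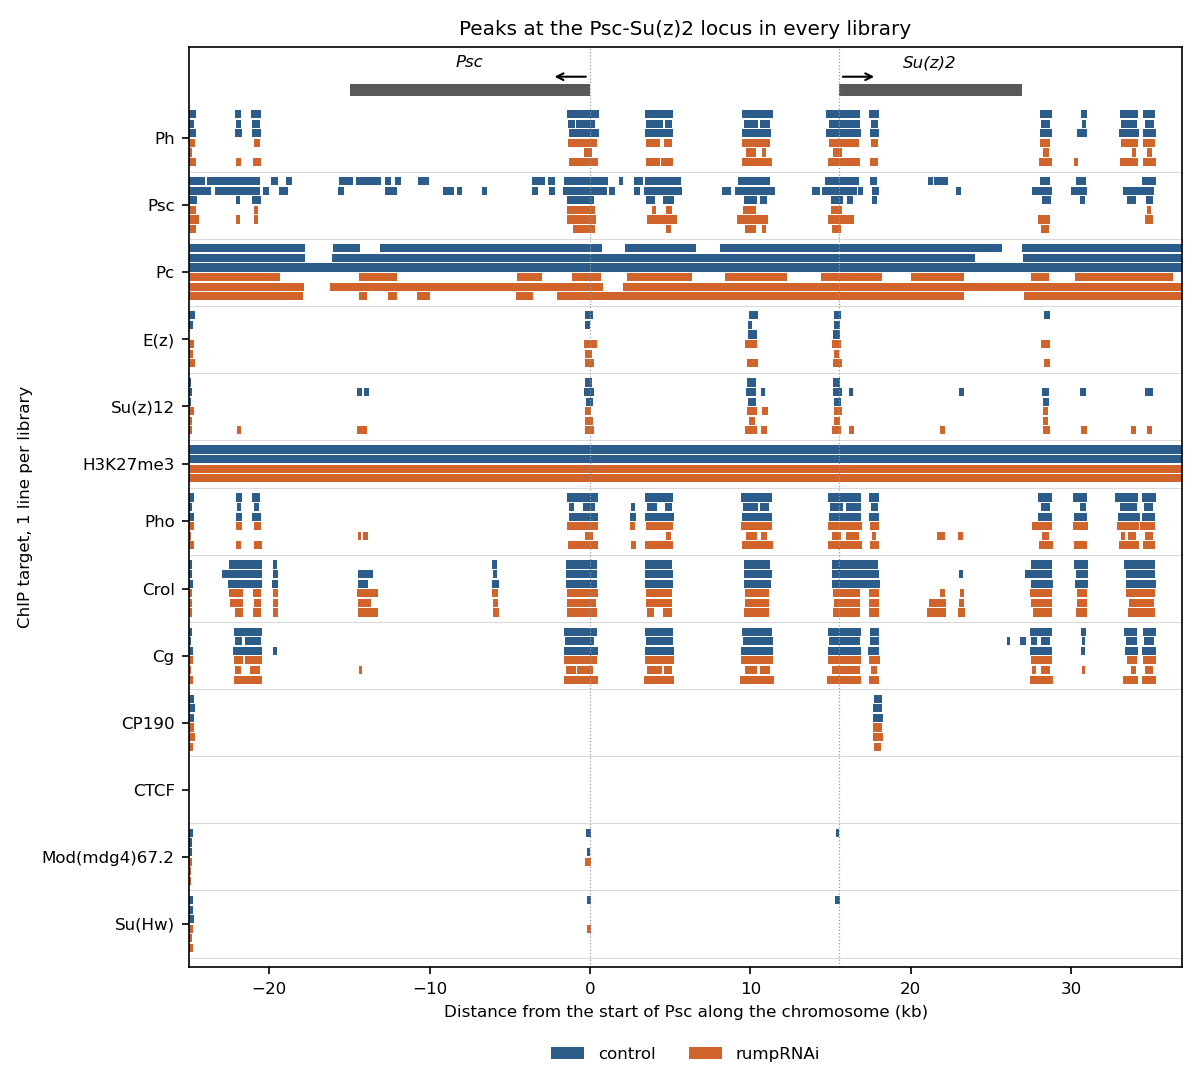
Peaks of 13 targets at the Psc-Su(z)2 locus, 1 line per library, against the distance from the start of Psc along the chromosome in kb. Grey bars are the genes, arrows their direction and dotted lines their starts. H3K27me3 spans the locus in all 4 libraries, while Ph, Psc, Pho, Crol and Cg form separate sites of which those at both gene starts are present in every library.

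Within that domain Ph was focal. There were 12 regions with a Ph peak in at least 3 of 6 libraries, and 7 of them had one in all 6. The site at the start of Psc spanned chr2R:12979577-12981578, with a summit 134 bp inside the gene. The site at the start of Su(z)2 spanned chr2R:12995717-12997867, with a summit at -132 bp. A further site lay in intergenic sequence at chr2R:12990456-12992406. Another 1 spanned the start of lncRNA:CR44339, at -4906 bp from the start of Psc (negative distances are upstream).

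At the start of Su(z)2 the Ph fold enrichment was 36.8, 28.1 and 29.9 in the control libraries and 40.4, 23.6 and 33.9 after rumpRNAi. These values were at percentiles of 96.7, 95.1 and 93.8, and of 97.3, 96.7 and 95.3. At the start of Psc the fold enrichment was 29.8, 27.04 and 26.3 in control and 30.2, 18.3 and 27.3 after rumpRNAi, at percentiles of 93.1, 94.4 and 91.5, and of 91.4, 95.2 and 92.6. At neither start did the conditions separate. The lowest fold enrichment at both was that of rumpRNAi replicate 2, which had the narrowest peaks of the 6 Ph lists with a median width of 302 bp.

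The Ph sites of the locus were shared with the recruiters. Of the 12 sites, Crol overlapped 12 in every library, Cg 11 and Pho 9. Pc and H3K27me3 overlapped all 12 in every library, as broad peaks that hold several sites each. For comparison, of 2050 Ph regions of the genome with a peak in at least 3 libraries, 82.3% had Crol, 55.5% Cg, 70.4% Pho, 19.2% Pc and 27.9% H3K27me3 in every library.

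E(z), the methyltransferase of PRC2, had a peak in every library at 1 of the 12 sites and in any library at 5, against 7.51% and 25.8% of the Ph regions of the genome. The site at the start of Su(z)2 had an E(z) peak in 6 of 6 libraries, that at the start of Psc in 5 of 6 and the intergenic site in 5 of 6. The E(z) fold enrichment at the start of Su(z)2 was 5.79, 5.46 and 4.10 in control and 10.6, 4.99 and 6.15 after rumpRNAi, so the conditions overlapped. These values were at percentiles of 42.7, 11.0 and 16.0, and of 78.5, 18.9 and 33.2. Most were thus low in their lists, which held only 214 to 547 peaks. Su(z)12, a PRC2 subunit needed for the methylation of H3K27, was present in 6 of 6 libraries at 4 sites, which include both gene starts.

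Insulator proteins were found at a site on the edge of the window, which is set by the 10 kb rule and lies inside the H3K27me3 peak. A site 24987 bp downstream of the start of Psc, over an exon of CG13321 beyond the end of the gene, was the only 1 of the 12 Ph sites with CP190, Mod(mdg4) and Su(Hw) peaks in every library. Su(Hw), the zinc finger protein of the gypsy insulator, was there at percentiles of 91.0, 89.5 and 90.3 in control and 91.1, 88.0 and 89.4 after rumpRNAi. The same site carried Ph at a fold enrichment of 30.7, 29.1 and 32.8 in control. A second CP190 region lay in an intron of Su(z)2, 2442 bp from its start, again in 6 of 6 libraries. No CTCF peak was found at the locus in any of 6 libraries.

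The ph locus had the strongest Ph peaks of the 4 genes. There were 5 regions with a Ph peak in at least 3 libraries, and 3 of them had one in all 6. The highest Ph peak of the locus stood at percentiles of 99.4, 99.8 and 99.6 in the control libraries and 99.6, 96.5 and 99.2 after rumpRNAi, where the Psc-Su(z)2 locus reached 96.7, 95.5 and 95.5, and 97.3, 96.7 and 95.3. The ph locus was thus higher in 5 of 6 libraries, with rumpRNAi replicate 2 as the exception. In ranks, its best peak was the 14th, 6th and 8th of lists of 2132, 2769 and 2137 peaks in control.

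**Figure D2:**
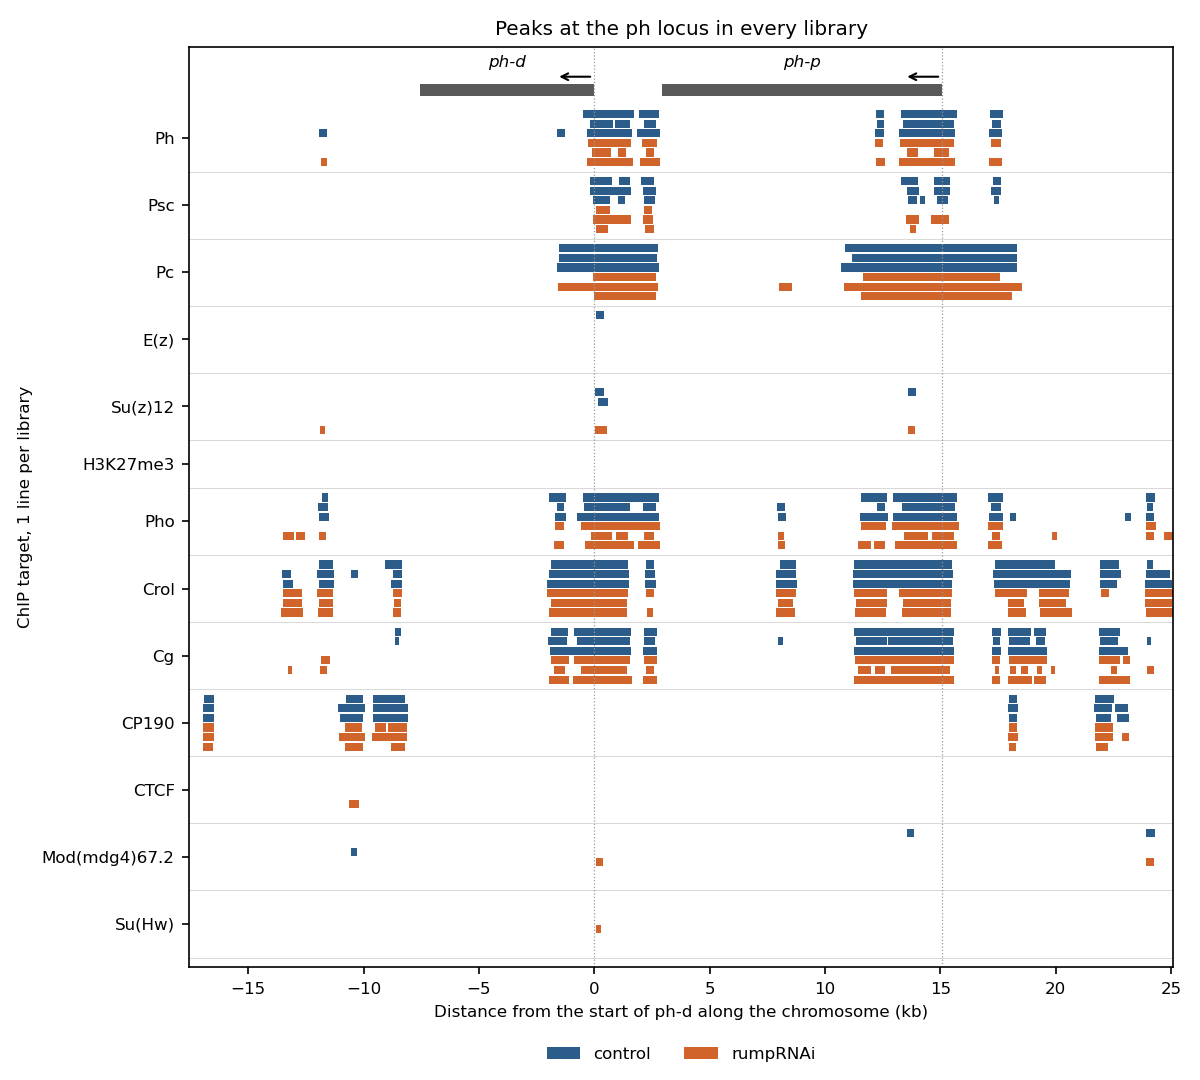
Peaks of 13 targets at the ph locus, 1 line per library, against the distance from the start of ph-d along the chromosome in kb. Symbols are those of the map of the Psc-Su(z)2 locus. Ph, Psc, Pc, Pho, Crol and Cg gather at the starts of ph-d and ph-p and upstream of each, the H3K27me3 lines are empty and E(z) has a peak in 1 library.

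Both ph-d and ph-p had a Ph site near an annotated start and a second site further upstream, at distances that depend on the start taken. Ph had a summit at -244 bp from the longest annotated start of ph-d. At ph-p it had a summit at -228 bp from the annotated start at position 2136855, 1 of 3 starts of that gene. From the longest start of ph-p the same summit lay 1288 bp inside the gene. Each gene had a second site further upstream, at -2428 bp from the start of ph-d and at -2340 bp from the longest start of ph-p. At the start of ph-d the Ph fold enrichment was 41.0, 46.1 and 38.3 in control and 48.9, 22.9 and 42.1 after rumpRNAi. In the region over the starts of ph-p the best value was 42.3, 33.6 and 34.8 in control and 41.4, 22.5 and 44.9 after rumpRNAi. In rumpRNAi replicate 2 the peak over the longest start itself had only 6.64. The conditions overlapped at both, and rumpRNAi replicate 2 was again the lowest library.

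The 300 bases around the Ph summits at the starts of ph-d (chrX:2123381-2123680) and ph-p (chrX:2136934-2137233) are printed here because they were the Ph regions outside H3K27me3 whose lowest percentile over the 6 libraries was highest. The site between the genes at chrX:2125144-2126142 was above that of ph-p in the 3 control libraries, with percentiles of 99.4, 97.63 and 99.6 against 98.7, 97.60 and 96.5, and below it in the rumpRNAi libraries. They are the plus strand of the reference assembly, 5′ to 3′, whereas both genes run on the minus strand. Capitals mark the words GAGAG (bound by GAGA factor and Pipsqueak) and GTGTGT (bound by Combgap), on either strand, with overlapping copies counted.
ph-d: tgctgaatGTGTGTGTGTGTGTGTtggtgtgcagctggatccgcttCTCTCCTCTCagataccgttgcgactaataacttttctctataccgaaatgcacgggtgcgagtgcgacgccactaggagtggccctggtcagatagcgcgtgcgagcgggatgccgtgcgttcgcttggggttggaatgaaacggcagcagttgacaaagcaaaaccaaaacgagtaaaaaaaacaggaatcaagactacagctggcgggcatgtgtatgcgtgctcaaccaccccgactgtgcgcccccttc
ph-p: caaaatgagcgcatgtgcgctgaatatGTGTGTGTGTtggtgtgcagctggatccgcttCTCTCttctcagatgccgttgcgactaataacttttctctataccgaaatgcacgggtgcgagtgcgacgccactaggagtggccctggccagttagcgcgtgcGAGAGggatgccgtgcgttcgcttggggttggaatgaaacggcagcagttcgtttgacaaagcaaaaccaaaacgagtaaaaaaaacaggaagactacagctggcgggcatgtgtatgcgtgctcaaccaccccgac

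The windows share an identical run of 74 bases. The ph-d window holds 6 copies of GTGTGT in 1 run and 2 of GAGAG, and the ph-p window holds 3 and 2. Neither holds GCCAT, the core of the Pho motif. Of the 2050 Ph summit windows of the same length, 20.3% hold GTGTGT, 43.9% GAGAG and 58.7% GCCAT. At least 4 copies of GTGTGT were found in 5.66% of the summit windows.

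The promoters, taken as the 250 bases before the longest start and the first 50 after it, differed in these words. GAGAG occurred 6 times in that of Su(z)2, 3 times in those of ph-d and ph-p and 1 time in that of Psc, against 29.7% of 13968 promoters with any copy and 6.11% with 3 or more. GTGTGT was found in the promoter of ph-d alone of the 4, with 6 copies, against 15.7% of promoters with any copy. The ph-p promoter was cut at the longest start. It thus leaves out the 3 copies in the printed window upstream of the ph-p start at 2136855, so this difference depends on the start taken. GCCAT was found 1 time each in those of Psc and ph-p, against 41.2% of promoters. A word is a description of the letters in the window and not a binding site.

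The ph genes are near copies of each other in part, so the uniqueness of their sequence was measured. Of all 50-base words of the ph locus, 14.0% occur more than 1 time in the genome, and 30.4% of those of ph-d are also in ph-p. In the Ph regions at the starts of ph-d and ph-p this held for 25 of 2209 and 25 of 2521 words, 1.13% and 0.992%. The authors filtered on mapping quality, so a gap in cover over repeated stretches inside the genes cannot be read as absence of binding. The Psc-Su(z)2 locus held no repeated 50-base word.

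The strength of Ph at the ph genes without H3K27me3 was set against the rest of the genome. Of 975 Ph regions found in all 6 libraries, 529 (54.3%) had no H3K27me3 peak in any of 4 libraries. Of all these regions, 37 were at a percentile of 95 or more in all 6 libraries. Of them 35 had H3K27me3 in all 4 libraries, and the 2 without were those at the starts of ph-d and ph-p. At a bound of 90 in all libraries, 4 of 134 regions had no H3K27me3 and 3 of the 4 were at the ph locus, and at 80 they were 13 of 203 with 3 at the ph locus. These bounds were set after the values were seen and carry no test.

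**Figure D3:**
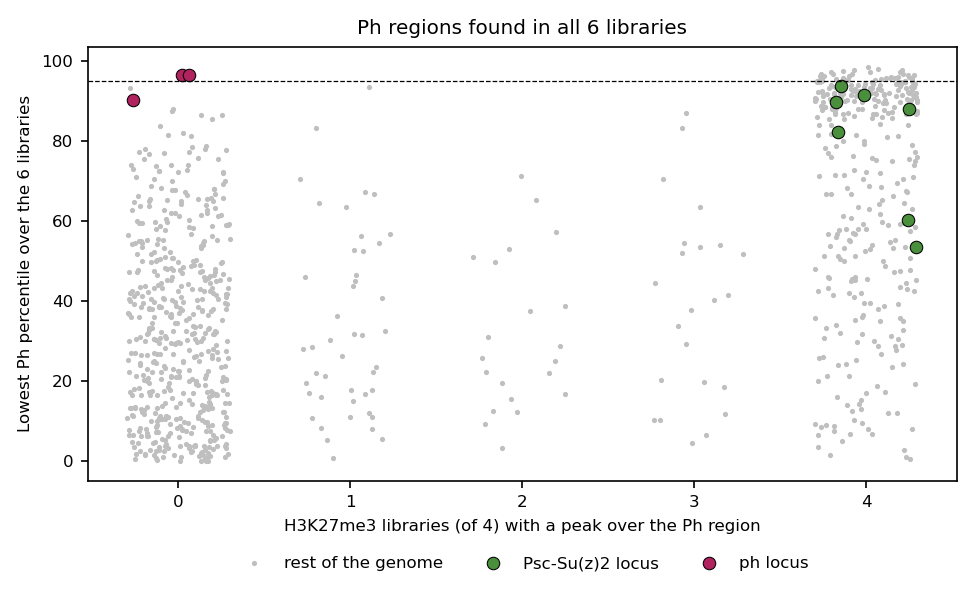
The 975 Ph regions with a peak in all 6 libraries, by the number of H3K27me3 libraries (of 4) with a peak over them on the x axis and the lowest of the 6 Ph percentiles on the y axis. Points are spread sideways for legibility and the dashed line is a percentile of 95. The regions of the ph locus stand at the top of the group without H3K27me3, at 90.3, 96.4 and 96.5, and those of the Psc-Su(z)2 locus are in the group with 4.

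Pc was also stronger at the ph locus than at the Psc-Su(z)2 locus. The ph locus had 2 Pc peaks, 1 over each gene start, in every library, with 1 further piece in rumpRNAi replicate 2. The best of them stood at percentiles of 96.9, 99.8 and 98.5 in control and 83.4, 98.6 and 99.6 after rumpRNAi. At the Psc-Su(z)2 locus the best Pc peak was at 68.8, 65.3 and 70.9 in control and 39.6, 80.1 and 55.9 after rumpRNAi, lower than at the ph locus in 6 of 6 libraries. Of 38 Pc regions at a percentile of 80 or more in all 6 libraries, 36 had H3K27me3 in all 4 libraries. The 2 without were that at ph-d and 1 at the start of toy, a Pax6 gene. This bound is lower than the 95 used for Ph, and the Pc peak at ph-p, at 71.4 in rumpRNAi replicate 1, missed it. Of all 260 Pc regions found in all 6 libraries, 23 (8.85%) had no H3K27me3 peak, against 54.3% for Ph. At a bound of 90 for Pc, 9 of 9 had H3K27me3, and the ph-d region no longer qualified because of rumpRNAi replicate 1. Fold enrichment of these broad peaks is a mean over the peak, so that wide and narrow peaks are not strictly comparable.

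PRC2 had few peaks at the ph locus. E(z) had 1 peak there, in control replicate 1 at a percentile of 23.2, and none in 5 of 6 libraries. The E(z) lists themselves were short, with 214 to 547 peaks. Su(z)12 had peaks in control replicates 2 and 3 and in rumpRNAi replicate 3, the libraries with the longest Su(z)12 lists of 2855, 1378 and 4267 peaks, against 315 to 886 in the 3 libraries without. The nearest H3K27me3 peak in any library lay 11241 bp outside the window.

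Psc, by contrast, was weaker at ph than at its own locus. The best Psc peak at the ph locus was at percentiles of 79.7, 72.3 and 81.8 in control and 46.3, 54.6 and 71.4 after rumpRNAi. At the Psc-Su(z)2 locus it was at 90.6, 93.0 and 94.1 in control and 82.8, 96.1 and 99.1 after rumpRNAi, higher than at ph in 6 of 6 libraries. Except in rumpRNAi replicate 1, this best peak was that of the insulator-bound site over an exon of CG13321. At the start of Psc the percentiles were 90.4, 88.5 and 91.8 in control and 72.2, 76.3 and 86.7 after rumpRNAi. At the start of Su(z)2 they were 88.6, 86.7 and 93.0, and 82.8, 79.5 and 84.8. Both starts were also above the best peak at ph in each library. Psc had a peak in every library at 5 of the 12 Ph sites of the Psc-Su(z)2 locus and 2 of the 5 of the ph locus, against 10.9% of the Ph regions of the genome. In at least 1 library it did at 12 of 12 and 4 of 5, against 41.6%. Pho, the zinc finger recruiter, stood at 99.0 to 99.4 at the ph locus in control and at 98.7 to 99.6 after rumpRNAi. Its 9 kept regions at the Psc-Su(z)2 locus and 3 at the ph locus all overlapped between conditions.

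**Figure D4:**
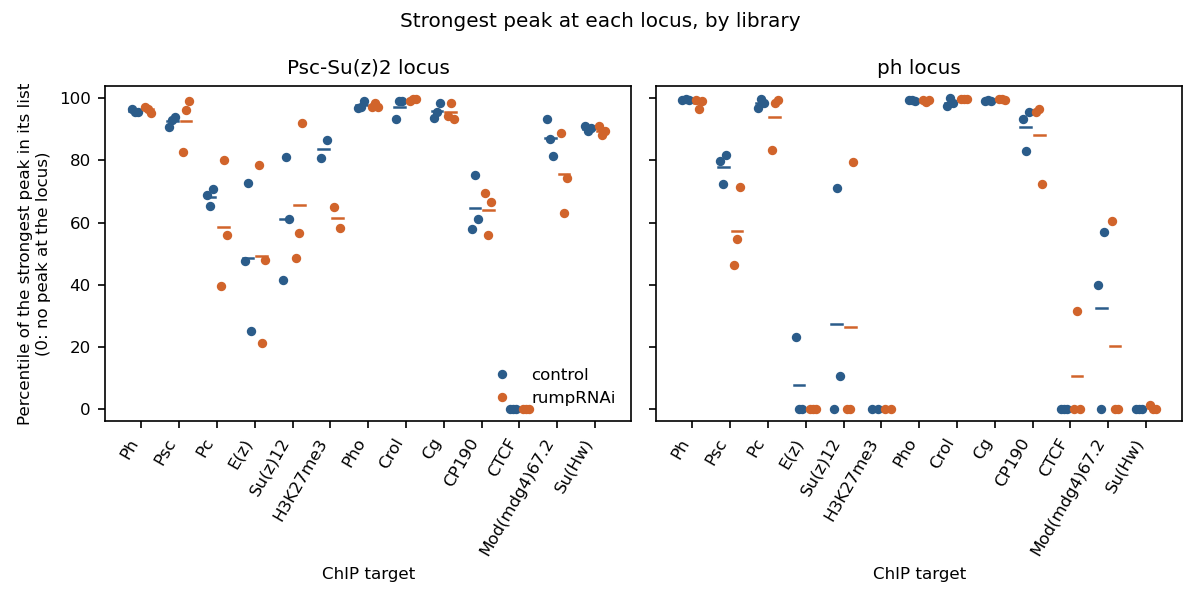
Percentile of the strongest peak of each target at the 2 loci, 1 point per library with short lines for the means. A library without a peak at the locus is drawn at 0. Ph, Pho, Crol and Cg are near the top of their lists at both loci, Pc is higher at ph, Psc higher at Psc-Su(z)2, and H3K27me3 has no peak at ph.

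The comparison of rumpRNAi with control asked whether Rump depletion changed the binding of PRC1 to the genes of its own subunits. For each target and locus the highest percentile and the covered share were compared, 48 tests in all, and the p-values were given a Benjamini-Hochberg adjustment. With 3 libraries against 3 the smallest exact permutation p is 0.1, and with 2 against 2 it is 0.333, so that no test could pass 0.05. The lowest adjusted p was 1, and 3 tests reached the smallest p of 0.1. These were Psc at the ph locus, Crol at the Psc-Su(z)2 locus and Cg at the ph locus.

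Psc had fewer peaks after Rump depletion. At the Psc-Su(z)2 locus the control libraries had 23, 25 and 15 Psc peaks and the rumpRNAi libraries 8, 9 and 7, and at the ph locus 6, 5 and 7 against 2, 4 and 3. The conditions did not overlap at either locus. The number of Psc peaks in the whole list fell alike, from 881, 723 and 845 to 322, 398 and 372. The lists also ended at different levels of significance. Their lowest -log10 q was 6.29, 6.49 and 6.38 in control and 7.85, 6.80 and 7.15 after rumpRNAi. Numbers of peaks, cover and lost regions of Psc carry this limit. As a share of the list, the Psc-Su(z)2 locus held 2.61%, 3.46% and 1.78% of Psc peaks in control and 2.48%, 2.26% and 1.88% after rumpRNAi, which overlap.

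At the Psc-Su(z)2 locus 5 regions, which include both gene starts, had a Psc peak in all 6 libraries. Psc cover of the Psc-Su(z)2 locus was 38.7%, 40.6% and 14.2% in control and 7.81%, 15.6% and 6.69% after rumpRNAi, a difference of -21.1 percentage points (exact permutation p = 0.2). Control replicate 3 with 14.2% lay within the range of the rumpRNAi libraries. Cover was lower after rumpRNAi in 3 of 3 same-numbered pairs, for which an exact sign permutation cannot give a p below 0.25. At the ph locus Psc cover was 9.08%, 9.41% and 6.62% in control and 2.25%, 8.08% and 2.70% after rumpRNAi (difference -4.03, exact permutation p = 0.2), again lower in 3 of 3 pairs.

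At the loci 3 Psc regions were lost, that is, they had a peak in every control and no rumpRNAi library, and none was gained. They were an intronic region of Su(z)2 2234 bp from its start, a region 15235 bp past that start and the upstream site of ph-p at -2361 bp. Their control percentiles were 12.7, 31.7 and 50.4 for the intronic region, 56.8, 21.2 and 26.1 for the second and 59.3, 45.2 and 29.4 for the third. Of 1321 Psc regions of the genome 3.79% were lost, against 3 of 35 at the loci. Ph lost no region at either locus, against 1.52% of its 3495 regions genome-wide.

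Psc had a peak in all libraries at 7 regions. At 6 of these, all rumpRNAi percentiles were below all control percentiles. This is close to the background, since the same held for 74.3% of the 218 such Psc regions of the genome. At the start of Psc the percentiles were 90.4, 88.5 and 91.8 in control and 72.2, 76.3 and 86.7 after rumpRNAi. At the start of ph-d they were 76.7, 71.2 and 81.8 in control and 29.0, 49.6 and 45.6 after rumpRNAi. The exception was the insulator-bound site beyond the end of Psc, with 90.6, 93.0 and 94.1 in control and 79.0, 96.1 and 99.1 after rumpRNAi.

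The length of the lists moved with these percentiles. The fold enrichments themselves overlapped between conditions at the start of Psc, with 20.7, 22.8 and 33.3 in control and 17.3, 21.2 and 19.2 after rumpRNAi, and at the start of Su(z)2, with 18.5, 20.6 and 36.1 against 23.0, 23.9 and 18.8. Each Psc list was then shortened to the 322 peaks with the highest -log10 p of the peak caller, the length of the shortest list. In these lists 0 of the 7 regions separated the conditions, and 6.12% of the regions of the genome did so downward. The best Psc peak at ph stood at 44.6, 37.7 and 52.3 in control and 46.3, 43.9 and 66.9 after rumpRNAi, which turned the difference from -20.5 to 7.51 percentile points. Lists of equal length remove any difference in the number of peaks by construction. A loss of weak Psc sites over the genome thus cannot be told apart here from an effect of list length, and neither was tested. Of the 7 regions, that at -4900 bp from the start of Psc had fold enrichments that did not overlap, 11.8, 12.7 and 13.3 in control against 7.15, 10.2 and 6.53 after rumpRNAi. This region was singled out after its values were seen.

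**Figure D5:**
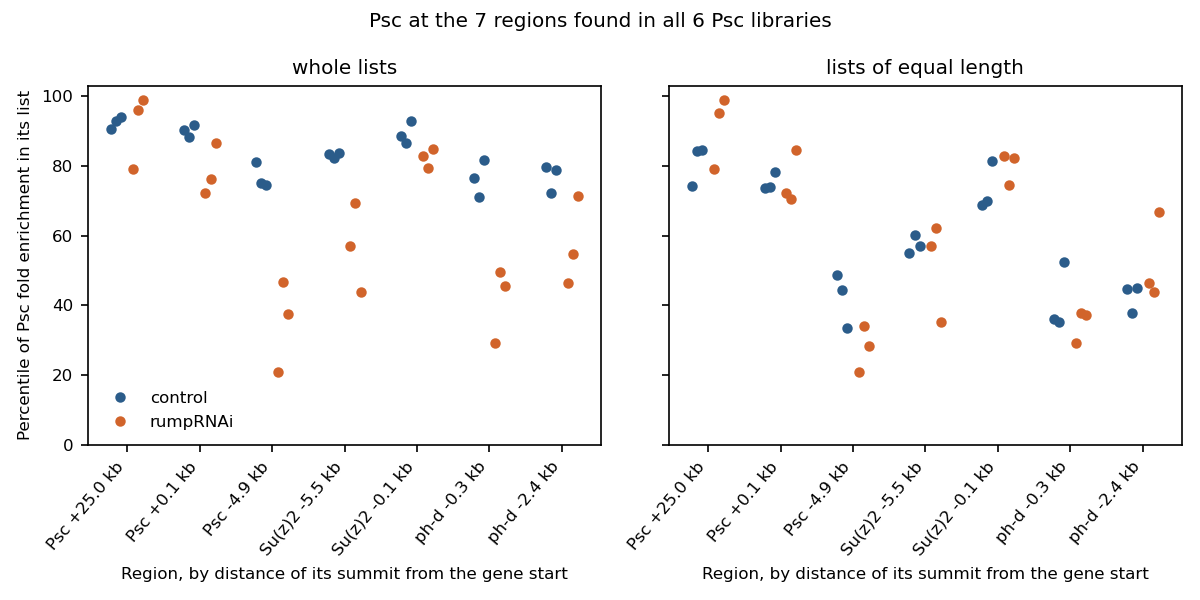
Percentile of Psc fold enrichment at the 7 regions with a Psc peak in all 6 libraries, 1 point per library, named by the nearest gene and the distance of the summit from its start. On the left the whole lists were used, where 6 of 7 regions are lower in all rumpRNAi libraries. On the right all lists were shortened to 322 peaks, where 0 of 7 are.

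H3K27me3 kept its cover of the Psc-Su(z)2 locus, 100% in 2 of 2 control and 2 of 2 rumpRNAi libraries. The percentile of the domain was 80.9 and 86.6 in control and 64.9 and 58.1 after rumpRNAi, a difference of -22.3 (exact permutation p = 0.333, 2 libraries against 2). The conditions did not overlap, and of the 206 H3K27me3 regions present in all libraries 33.0% were lower in this sense. Its mean fold enrichment did overlap, with 3.97 and 3.68 in control and 3.92 and 4.17 after rumpRNAi. The median of the lists had moved from 3.34 and 2.91 to 3.68 and 4.05. The ph locus stayed free of H3K27me3 peaks in both conditions.

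Ph and Pc had no gained or lost region at the loci. Of the 10 Ph regions in all 6 libraries 1 was lower, 19381 bp past the start of Su(z)2, with percentiles of 88.3, 90.7 and 88.8 in control and 83.6, 60.3 and 88.0 after rumpRNAi. The background of this call was 8.51% of 975 Ph regions. The best Ph percentile changed by 0.53 at the Psc-Su(z)2 locus (exact permutation p = 0.6) and by -1.15 at ph (p = 0.2). Ph cover of the Psc-Su(z)2 locus was 20.6%, 17.0% and 21.1% in control and 16.5%, 4.80% and 19.7% after rumpRNAi, a difference of -5.87 percentage points (exact permutation p = 0.2). At the ph locus it was 15.0%, 11.9% and 16.4% in control and 13.3%, 5.99% and 15.3% after rumpRNAi, a difference of -2.93 (exact permutation p = 0.6). The cover was lower in 3 of 3 same-numbered pairs at both loci. Without rumpRNAi replicate 2, the library with the narrowest Ph peaks, the differences were -1.43 and -0.16. None of the 3 Pc regions was lower, against 5.00% of 260 genome-wide, and none of the 12 Pho regions, against 5.64% of 2144. The best Pc percentile changed by -9.81 at Psc-Su(z)2 (exact permutation p = 0.5) and by -4.53 at ph (p = 0.7).

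The recruiters Crol and Cg were compared at single sites. Crol, a zinc finger protein found at PREs, had 1 gained region, over an exon of Su(z)2 at chr2R:13002006-13003187, at percentiles of 35.8, 15.2 and 47.6 in the rumpRNAi libraries. Gained regions made up 7.16% of 13679 Crol regions. The Crol lists were longer after rumpRNAi, with 9883 to 11117 peaks against 7214 to 8903. Of 18 kept Crol regions 2 had higher percentiles after rumpRNAi, both at the Psc-Su(z)2 locus, a smaller share than the 29.5% of 4999 genome-wide, and 1 had lower ones, against 6.30%. The intergenic site at -5360 bp from Su(z)2 went from 80.6, 97.5 and 97.8 to 99.0, 99.7 and 99.3, and the site 12939 bp past that start from 93.3, 99.2 and 99.2 to 99.3, 99.9 and 99.8. The low control value at each is that of control replicate 1. The fold enrichments overlapped at both, with 5.29, 10.7 and 14.7 in control against 12.5, 15.8 and 11.7 after rumpRNAi at the first and 7.27, 12.4 and 16.9 against 12.9, 17.9 and 13.3 at the second. With lists of equal length the second no longer separated the conditions.

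Cg, the zinc finger protein Combgap, was higher at both ph genes. Its region at ph-d went from percentiles of 99.2, 99.5 and 99.2 to 99.8, 99.9 and 99.5, and its fold enrichment from 21.3, 22.0 and 23.0 to 24.9, 26.2 and 27.05. Its region at ph-p went from 92.7, 94.3 and 92.5 to 98.3, 99.6 and 96.1, and from a fold enrichment of 15.5, 15.9 and 16.2 to 20.8, 23.5 and 20.5. The conditions did not overlap in either measure at either gene. Of 4576 Cg regions in all libraries 2.38% were higher in this sense, and 11.6% lower, against 2 and 1 of the 16 at the loci. The lower one was the upstream site of ph-p, with 56.7, 74.7 and 61.2 in control and 49.3, 43.1 and 56.3 after rumpRNAi.

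CP190, Mod(mdg4) and Su(Hw) did not separate the conditions at any region with a peak in all libraries. CP190 had 5 regions with a peak in all libraries at the ph locus, within or near the neighbours csw, D2hgdh and Pgd and none over the ph genes. Su(Hw) had a peak at the ph locus in 1 of 6 libraries, at a percentile of 1.07, and CTCF in 1 of 6.

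The spans of other PcG genes were compared with those of all protein-coding genes. A long span overlaps a peak more readily, and the genes were not matched for length. Of 33 further genes, most of PRC1, PRC2, the PhoRC complex and recruiters and with rump itself, 3 overlapped an H3K27me3 peak in both control libraries, namely jing, grh and E(Pc). Over all protein-coding genes the share was 3.68%. In both rumpRNAi libraries 2 did, jing and grh. The peak over E(Pc), a gene of the Tip60 complex, was in control the edge of the domain of en and inv, which in the rumpRNAi libraries ended short of E(Pc). With 2 kb added on each side it reached E(Pc) in all 4 libraries.

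Ph covered 6 of the 33 genes in every control library (jing, crol, Trl, psq, grh and Adf1) and 4 in every rumpRNAi library (jing, crol, psq and grh), against 6.80% and 4.78% of all protein-coding genes. In control, jing (93.5 to 97.2) and grh (93.2 to 95.5) had Ph percentiles as high as Psc and Su(z)2, while those of crol were 20.2 to 45.5. Psc covered jing and grh, 2 of 33, in every library of either condition, against 1.25% and 0.795% of all genes. Pc covered 6 of 33 in every control library and 3 in every rumpRNAi library, against 2.47% and 1.41%. No list had a Ph, Psc, Pc or H3K27me3 peak over the spans of Pc, E(z), Su(z)12, esc, pho or rump. With 2 kb added on each side, Pc had a Ph peak in 2 control libraries (percentiles of 15.2 and 44.4) and 2 rumpRNAi libraries (20.7 and 41.9). The others still had none. Sce, which encodes the RING subunit of PRC1, had a Ph peak in 1 control library at a percentile of 16.6.

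The classical Polycomb targets en, inv, eve, Antp, Ubx and wg, which encode developmental regulators, gave the scale. All 6 had H3K27me3, Ph and Pc peaks in every library. Over the gene spans, which differ in length and were not matched, their best Ph percentile in control ranged from 92.7 to 99.3. Measured in the same way, it was 91.5 to 94.4 for Psc, 93.8 to 96.7 for Su(z)2, 96.5 to 98.7 for ph-p and 98.2 to 99.8 for ph-d, so all 4 genes overlapped the range of the classical targets. Their H3K27me3 percentile in control was 85.0 to 98.6, against 80.9 and 86.6 for the domain of Psc and Su(z)2 and no peak at the ph genes.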

How the data were processed

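According to the paper and the labels, the authors aligned 50 bp reads to dm6 (Bowtie2 2.5.3) after trimming (Trim Galore 0.6.7). Reads of low mapping quality, rRNA reads and duplicates were removed with SAMtools (1.12 in the labels) and Picard. The authors called peaks per library against input with MACS2 2.2.7.1, narrow for most targets and broad for Pc and H3K27me3. The deposited fold enrichment is a ratio over input, and the deposited -log10 p and -log10 q are those of the caller. Summit positions were used as deposited.

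The 76 lists were grouped by their labels. The 17 inputs titled as Rump depleted but labelled with GFP dsRNA were not assigned, and inputs have no list. In 18 lists (E(z), Psc, Su(z)12) the peak names carry another replicate number than the label. No 2 lists were identical.

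For each target, overlapping peaks (1 bp or more) of all its libraries formed 1 region. It was kept with a peak in every library, gained or lost with peaks in all libraries of 1 condition and none of the other. Percentiles were computed within lists, and tests were exact two-sided permutations of libraries (Python 3.11.15, numpy 2.4.6, scipy 1.17.1), after a check on simulated lists. The labels call the libraries replicates, and p-values measure the spread between them. Genes came from Ensembl 115 (BDGP6) and sequence from the RefSeq copy of release 6, whose arm lengths hold all peaks. The listed genes calypso and dsp1 were matched to caly and Dsp1 by synonym.

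Named were the 4 genes, genes with a region at their start or inside, other PcG genes with H3K27me3 in every library of a condition, the comparison loci, and gained or lost regions. The further genes named for Ph and without peaks, and toy, were named after their values were seen. The members, lists and rules were chosen with earlier results of these data known.

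Same-numbered libraries were checked for pairing by the correlation of their deviations from the condition means over kept regions. All 3 correlations were over 0.1 for Ph (0.31 to 0.50), Psc (0.37 to 0.44) and Pho (0.37 to 0.59), for which the numbers pair the libraries. The other targets with 3 pairs did not meet this rule. H3K27me3, with only 2 pairs (0.31 for both), could not meet it. Alternatives were a window of 2 kb, stricter q, lists of equal length, peaks with at least 50% of their length in the window, ranks by -log10 p, fold enrichment over the list median, the replicate block and leaving out each library. Lists of equal length kept the peaks with the highest -log10 p.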

Additional observations from a re-analysis of the deposited data

How the results depend on the processing

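No difference between conditions could pass 0.05 under any alternative, since the smallest exact p is 0.1, so only directions and counts can change. Lists of equal length reversed the change of the best percentile of Psc at ph (7.51), Pc at Psc-Su(z)2 (6.06) and Cg at Psc-Su(z)2 (0.012), and left 1 lost region over all targets (of 3), 0 lost Psc regions, 2 lower regions (of 10) and 0 lower Psc regions (of 6). Here the shorter lists themselves remove the weak peaks. The best Psc percentile at Psc-Su(z)2, with a main difference of 0.05, turned to -7.61 with a window of 2 kb, which leaves out the insulator-bound site, to -2.90 by -log10 p and to -0.42 on the log2 scale over the list median. That of Ph at the same locus turned to -0.31 by -log10 p and -0.032 on the log2 scale, and that of Cg to 0.073 on the log2 scale. With a window of 2 kb 1 region was lost, also of Psc (1), 41 were kept (of 81) and 6 were lower. The stricter q left 3 lower Psc regions. With 2 kb added to gene spans, 4 PcG genes had H3K27me3 in both rumpRNAi libraries (of 2). The percentile difference of H3K27me3 at Psc-Su(z)2 (-22.3) was smaller by -log10 p (-6.48) and larger under the stricter q (-40.2). With at least 50% of the peak in the window it was -8.02, which is not comparable. The peaks of control replicate 2 and rumpRNAi replicate 2, 129507 and 129024 bp wide, had less than 50% of their length in the 61915 bp window and counted as 0. The stricter q also enlarged the differences of Pc at ph (-16.4, from -4.53) and of Pc cover at Psc-Su(z)2 (-38.0, from -19.3). By -log10 p that of Ph at ph was -2.16 (from -1.15), and 2 Ph regions at ph were lower, against 9.13% of 975. The causes of the other changes were not tested.

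Leaving out 1 library gave best-percentile differences of -3.16 to 4.98 for Psc, -20.6 to -0.35 for Pc, -2.06 to 0.86 for Cg, 0.11 to 1.09 for Ph and 0.45 to 3.41 for Crol at Psc-Su(z)2, and of -27.5 to -14.9 for Psc, -7.41 to 0.72 for Pc, -1.74 to -0.20 for Ph, 0.50 to 1.77 for Crol and 0.37 to 0.55 for Cg at ph. The change for Pc at ph became positive without rumpRNAi replicate 1, that for Cg at Psc-Su(z)2 without control replicate 3 or rumpRNAi replicate 1 or 3, and that for Psc at its own locus negative without control replicate 1 or rumpRNAi replicate 2 or 3. Gained regions numbered 1 to 2, lost regions 3 to 11 (9 at most for Psc, without control replicate 3), lower regions 13 to 21 and higher regions 6 to 10, as fewer libraries have to agree. Psc cover at Psc-Su(z)2 differed by -29.6 to -16.4 percentage points.

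With the replicate block, that is with pairs of same-numbered libraries and sign changes of their differences, the best-percentile differences were 0.05 for Psc and 0.53 for Ph at Psc-Su(z)2 and -20.5 and -1.15 at ph, and the smallest p the 3 pairs allow is 0.25. The block changed no call. For H3K27me3, which has too few pairs for the pairing rule, it gave -22.3.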
